A study of Mus musculus with 3 samples.

Results

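Transcripts of mechanically gated channels, TRP channels, polycystins and the core subunit of the volume-regulated anion channel were followed across single cells of mouse blastocysts. The 10 genes Piezo1, Piezo2, Tmem63a, Tmem63b, Pkd1, Pkd2, Trpm7, Trpc1, Trpv4 and Lrrc8a were chosen by name, and all 10 were among the 23154 genes of the count tables. The cells came from embryos of a mouse line with an H2B-mCherry reporter at Klf2, taken from mCherry-positive embryos that had been collected at embryonic day 2.5, kept in static or shaken culture and dissociated at embryonic day 3.5. The 3 libraries of 96 cell barcodes, called replicates 1 to 3, form 1 group. The labels do not tell static from shaken cells and give no mCherry level per cell, so no culture contrast was made. Separate cultures or animals are not stated for the libraries. With the library as a block, p-values reflect only how differences within a library varied over the 3 libraries, which may be technical.

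The blastocyst is a fluid-filled sphere whose outer trophectoderm seals and inflates the cavity, while the inner cell mass gives rise to the embryo proper. PIEZO1 and PIEZO2 are large trimeric cation channels that open when the membrane is stretched, and TMEM63A and TMEM63B, relatives of the plant OSCA channels, are also stretch-gated. Polycystin-1, encoded by Pkd1, and the TRP-type channel polycystin-2, encoded by Pkd2, sit in primary cilia, where they are studied as flow sensors in kidney epithelium and, for polycystin-2, in the embryonic node. In endothelial cells, PIEZO1 is a known sensor of the shear stress that induces Klf2. LRRC8A is the subunit without which the swelling-activated chloride channel does not form.

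Of 288 barcodes, 225 had counts for 2000 or more genes and were taken as cells, 83, 64 and 78 in replicates 1 to 3, with median totals of 286484 to 608734 counts per cell. The same 96 barcode numbers served in every library, and 46 of them were retained in all 3. Levels are CPM, the summed counts of a gene scaled to the summed total of the same cells. The libraries captured 3' ends, so CPM were not divided by length and levels of different genes were not ranked against each other. Intervals on shares of cells are exact Clopper-Pearson 95% intervals and, like the limits on counts of 0, cover counting error only. Cells of each library were ranked by the CPM of Krt8 plus Krt18, the simple epithelial keratins of the trophectoderm, and cut into 3 parts. The upper part is called keratin-high and the lower part keratin-low, with 27, 21 and 26 cells on each side. These are ranges of a score and not cell types, and 12, 13 and 19 cells lay within 1.5-fold of the upper cut and 17, 12 and 11 within 1.5-fold of the lower one.

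Other markers of the trophectoderm followed the keratins. The 14 markers without keratins summed to 1918, 3781 and 5108 CPM in keratin-high cells of replicates 1 to 3 and to 398, 272 and 282 CPM in keratin-low cells. Cdx2, the homeobox factor of the trophectoderm, had 78.9, 139 and 40.5 CPM in keratin-high and 2.19, 1.01 and 5.26 CPM in keratin-low cells. Nanog, the homeobox factor of the inner cell mass, had 31.5, 30.5 and 38.4 CPM in keratin-high and 156, 419 and 120.0 CPM in keratin-low cells. The sides did not overlap for these markers. Pou5f1, another factor of the inner cell mass, did overlap, with 74.8, 28.5 and 90.3 CPM in keratin-high and 50.1, 34.6 and 121 CPM in keratin-low cells. Sox2, which also marks the inner cell mass, had no count on either side. The 18 primitive endoderm markers overlapped, at 889, 3844 and 2177 CPM in keratin-high and 1137, 1647 and 1001 CPM in keratin-low cells, and Sox17, a defining marker of that lineage, reached at most 0.853 CPM on either side.

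Barcodes 33 to 64 of replicate 1 stood apart. They gave 29 cells, of which 22 fell on the keratin-low side, 6 in the middle and 1 on the keratin-high side. Ribosomal protein genes took 6.72% of their counts, against 20.9% and 22.8% in barcodes 1 to 32 and 65 to 96 of the same library. In keratin-high cells, which hold 1 cell of the set, this share ranged from 4.58% to 21.1% over the 3 libraries. The low share therefore set these barcodes apart within replicate 1, but not from every library. The 12 cumulus or granulosa markers summed to 1015 CPM in that set, against 87.8 and 78.2 CPM in the other sets of the library. Amhr2 gave 878 CPM of that sum, while Inha, Foxl2 and Amh, which define granulosa cells, were at 0. These genes reached at most 0.0493 CPM in any part of any library, so their absence is not particular to the set. Cyp11a1, another of the 12 markers, reached 131 CPM in keratin-low cells of 1 library, beside a median of 4.69 CPM over the 3 libraries. The 11 oocyte markers in the tables summed to 386 CPM in that set, against 30.3 and 30.7 CPM. The labels leave unsaid what a barcode number stands for, and results that rest on that set are given with and without it, a choice made after the data had been seen.

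Trpm7 was found in nearly every cell. It encodes a magnesium- and calcium-permeable TRP channel that carries a kinase domain at its end. A count was present in 80 of 83, 60 of 64 and 76 of 78 cells of replicates 1 to 3, or 96.4% (89.8 to 99.2), 93.8% (84.8 to 98.3) and 97.4% (91.0 to 99.7). After each cell was thinned to 50000 counts, which left out 9, 8 and 6 shallower cells, the shares were 93.2%, 92.9% and 94.4%. Depth therefore moved these shares by little. Of the 17448 genes with a count in these cells, 96.8% were seen in fewer cells than Trpm7. The level was 120.0, 333 and 191 CPM, a mean of 215 ± 108 CPM (SD, n = 3 libraries). Replicate 2 was the highest and replicate 1 the lowest, and the highest was 2.77 times the lowest. Counts were spread over many cells, since the cell with the most held 9.31%, 6.75% and 8.98% of them.

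Trpv4 was seen in few cells. It encodes a cation channel that responds to osmotic swelling, warmth and stretch. It had a count in 9 of 83 and 7 of 78 cells of replicates 1 and 3 and in 0 of 64 cells of replicate 2, where the limit of 3 counts allows a share of cells with a count of up to 4.69%. Its levels were 1.70, 0 and 0.848 CPM, from 52, 0 and 46 counts in all. The windows around the annotated starts of Trpm7 and Trpv4 are shown to set the channel gene seen in most cells beside one seen in few. Both are from RefSeq in build GRCm38.p6, read 5′ to 3′ on the minus strand from 250 bases before to 50 bases after the start, at chr2:126876212-126876511 for Trpm7 and chr5:114658372-114658671 for Trpv4. Capitals mark each CG, the dinucleotide whose density defines CpG islands.
Trpm7: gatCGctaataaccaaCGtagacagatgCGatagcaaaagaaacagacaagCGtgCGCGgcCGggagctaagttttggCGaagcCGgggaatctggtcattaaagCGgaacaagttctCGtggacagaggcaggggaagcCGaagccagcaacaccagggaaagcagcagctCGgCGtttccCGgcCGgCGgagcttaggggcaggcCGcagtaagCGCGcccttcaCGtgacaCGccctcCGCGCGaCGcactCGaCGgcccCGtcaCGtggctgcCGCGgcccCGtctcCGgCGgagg
Trpv4: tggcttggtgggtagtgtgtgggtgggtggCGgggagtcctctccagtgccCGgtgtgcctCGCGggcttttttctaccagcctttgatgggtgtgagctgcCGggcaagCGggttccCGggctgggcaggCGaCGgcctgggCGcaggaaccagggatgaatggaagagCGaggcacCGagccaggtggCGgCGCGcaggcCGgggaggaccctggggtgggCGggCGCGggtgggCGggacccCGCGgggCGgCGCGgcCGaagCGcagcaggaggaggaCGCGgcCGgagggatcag
Both windows were rich in CG, with 35 in Trpm7 and 30 in Trpv4. At least as many were held by 6.95% and 11.7% of all 32851 windows of 300 bases, whose median was 7. Of the 9 genes whose windows were counted, Piezo1, Tmem63b, Tmem63a, Lrrc8a, Trpc1 and Pkd1 had 34, 34, 33, 32, 22 and 18 CG. Pkd2 had 9, and Piezo2 was left out of this count. CG reads the same on both strands. The counts describe these windows and were not tested against the levels.

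**Figure D1:**
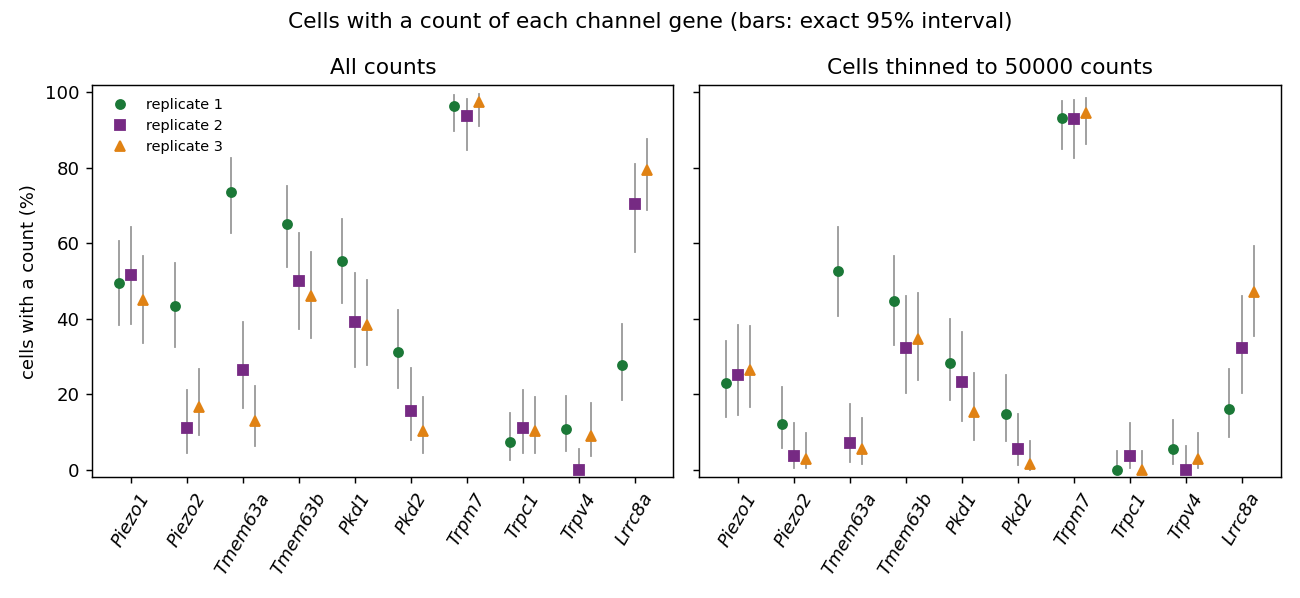
Share of cells with a count of each channel gene (vertical axis, percent) in replicates 1 to 3, with all counts (left) and after thinning each cell to 50000 counts (right); bars are exact 95% intervals. Trpm7 has the highest share in all 3 libraries in both panels, and Tmem63a, Pkd2 and Piezo2 are highest in replicate 1.

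Piezo1 was seen in like shares of the cells of each library, although its level was not alike. A count was present in 41 of 83, 33 of 64 and 35 of 78 cells, or 49.4% (38.2 to 60.6), 51.6% (38.7 to 64.2) and 44.9% (33.6 to 56.6). The thinned shares were 23.0%, 25% and 26.4%. The levels were 33.5, 8.58 and 7.48 CPM, so replicate 1 was high and replicates 2 and 3 lay close together. In replicate 1, 479 of the 1023 counts came from 1 cell of barcodes 33 to 64, and without that set the level in replicate 1 was 5.32 CPM. Piezo1 lies at chr8:122481698-122551329 on the minus strand of mm10 (GENCODE M21). All of its final 1000 exonic bases, the stretch that 3' libraries read, are also exonic in Ctu2 on the other strand. A strand setting of the counting was not stated, so reads of Piezo1 and Ctu2 cannot be told apart there.

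Piezo2, its relative of sensory neurons, was sparser. It had 106, 9 and 30 counts in 36 of 83, 7 of 64 and 13 of 78 cells of replicates 1 to 3. Its levels were 3.47, 0.327 and 0.553 CPM and its thinned shares 12.2%, 3.57% and 2.78%. Both measures were highest in replicate 1.

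Tmem63b and Tmem63a differed in how evenly the libraries held them. Tmem63b had a count in 54 of 83, 32 of 64 and 36 of 78 cells, and its thinned shares were 44.6%, 32.1% and 34.7%. Its levels were 66.4, 34.4 and 15.6 CPM, but 1242 of the 2028 counts of replicate 1 came from 1 cell. Without that cell the level in replicate 1 was 26.6 CPM, below that of replicate 2. Tmem63a had a count in 61 of 83, 17 of 64 and 10 of 78 cells, or 73.5% (62.7 to 82.6), 26.6% (16.3 to 39.1) and 12.8% (6.32 to 22.3). Thinned, the shares were 52.7% (40.7 to 64.4), 7.14% (1.98 to 17.3) and 5.56% (1.53 to 13.6). The interval of replicate 1 did not overlap the others in either form. The levels were 42.7, 4.29 and 1.93 CPM, so the highest library was 22.1 times the lowest. That ratio was larger than that of 89.3% of the 14541 genes with a count in every library, whose median was 4.04. The top cell of replicate 1 held 12.7% of the counts, and 38.2 CPM remained without it. Without barcodes 33 to 64, replicate 1 still had 15.2 CPM and a thinned share of 35.4%.

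The polycystins were low in replicates 2 and 3. Pkd1 had a count in 46 of 83, 25 of 64 and 30 of 78 cells, at levels of 14.8, 4.32 and 3.69 CPM. Pkd2 had a count in 26 of 83, 10 of 64 and 8 of 78 cells, at levels of 22.4, 1.64 and 0.571 CPM. Replicate 1 was the highest for both. For Pkd2, 419 of the 684 counts of replicate 1 lay in 1 cell, barcode 54, the same cell that held most counts of Tmem63b, and without it Pkd2 had 8.98 CPM there. Without barcodes 33 to 64, replicate 1 had 2.39 CPM of Pkd1, the lowest of the libraries, and 2.02 CPM of Pkd2. Of the last 1000 exonic bases of Pkd1 (chr17:24549834-24596508, plus strand, mm10), 693 are shared with exons of Tsc2 on the other strand, and reads of these genes cannot be told apart there.

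Trpc1, a TRP channel studied for store-operated and stretch-linked currents, had 7, 16 and 14 counts in 6 of 83, 7 of 64 and 8 of 78 cells. These counts are too few to rank the libraries.

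Lrrc8a had its lowest level in replicate 1 and its highest in replicate 3. A count was present in 23 of 83, 45 of 64 and 62 of 78 cells, or 27.7% (18.4 to 38.6), 70.3% (57.6 to 81.1) and 79.5% (68.8 to 87.8). Its levels were 4.59, 9.81 and 22.4 CPM. After thinning the shares were 16.2% (8.67 to 26.6), 32.1% (20.3 to 46.0) and 47.2% (35.3 to 59.3), so replicates 1 and 3 did not overlap beyond counting error, while replicate 2 overlapped both. Without barcodes 33 to 64 the level in replicate 1 was 5.38 CPM, still the lowest. Lrrc8a lies at chr2:30237715-30263790 (plus strand, mm10), and 2853 of its 4308 exonic bases are shared on the same strand with the annotated gene Gm28035, none of them among the last 1000. Gm28035 was not among the genes of the count tables.

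Within replicate 1, Tmem63a, Piezo1, Pkd2, Pkd1 and Tmem63b had higher levels in barcodes 33 to 64 than over all cells. The set had 1056 of 1304 counts of Tmem63a, 936 of 1023 counts of Piezo1, 651 of 684 counts of Pkd2, 412 of 451 counts of Pkd1, 1548 of 2028 counts of Tmem63b and 67 of 106 counts of Piezo2. These shares were not set against the share of all counts that lay in the set, which CPM allow for. In the set Tmem63a, Piezo1, Pkd2, Pkd1 and Tmem63b had 74.5, 66.0, 45.9, 29.0 and 109 CPM. Over all cells of replicate 1 they had 42.7, 33.5, 22.4, 14.8 and 66.4 CPM. Piezo2 had 4.72 CPM in the set, against at most 1.47 and 3.65 CPM in barcodes 1 to 32 and 65 to 96 of any library. Its share of counts therefore says little. For Tmem63a and Pkd1 many cells took part. A count of Tmem63a was present in 25 of 29 cells of the set and a count of Pkd1 in 25 of 29. The thinned share of Tmem63a was 84.6% in the set, against 34.6% and 36.4% in barcodes 1 to 32 and 65 to 96. That of Pkd1 was 57.7% in the set, against 11.5% and 13.6%. For Pkd2 and Tmem63b a single cell held 64.4% and 80.2% of the counts of the set. Trpm7 was lower there, with 83.9 CPM in the set, against 151 and 152 CPM in the others. In the same barcode numbers of replicates 2 and 3, Tmem63a had 4.28 and 2.98 CPM. The set has no replicate, and no test was made. Ribosomal protein and marker genes moved with it as given above, and their part in these levels was not tested.

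**Figure D2:**
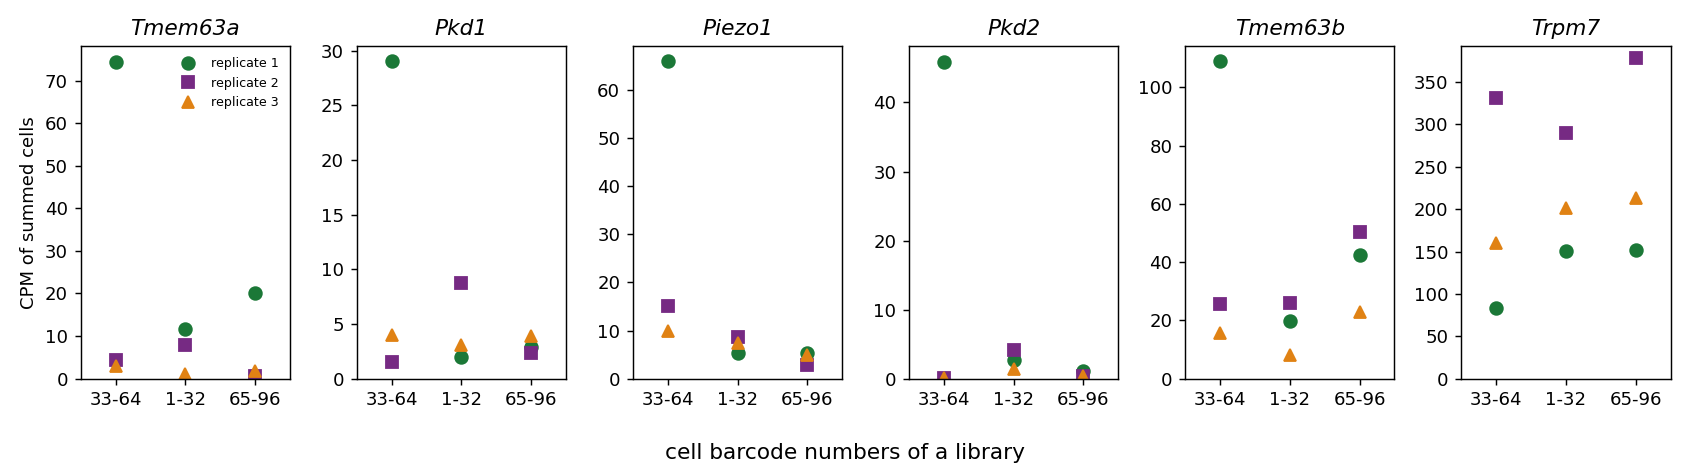
Level (CPM of the summed cells, vertical axes) of channel genes in sets of 32 barcodes of each library, 1 point per library. In replicate 1, Tmem63a reaches 74.5 CPM and Pkd1 29.0 CPM in barcodes 33 to 64, above every other set, while Trpm7 at 83.9 CPM is below every other set.

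No channel gene passed the threshold of the edgeR fit between keratin-high and keratin-low cells, and 1, Tmem63a, passed that of DESeq2. Of the 10 genes, 8 passed the filter on low counts, and the quasi-likelihood test of edgeR on sums blocked by library called 0 of them (Benjamini-Hochberg adjusted p below 0.05). The background was 0.156%, or 19 of 12154 genes, with 0.14% called higher and 0.0165% lower in keratin-high cells. An unadjusted p below 0.05 was reached by 1246 genes, 1 of them a channel gene. Levels of the 3 libraries overlapped between the sides for all 10 genes, while 6.61% of all genes tested were higher and 5.57% lower in keratin-high cells with no overlap. Without barcodes 33 to 64 of replicate 1, 649 of 11796 genes were called, 5.5%, and 0 of 9 channel genes. On simulated counts over 12156 genes, the fit called 7.78% of genes changed 4-fold and 70.5% of genes changed 16-fold.

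**Figure D3:**
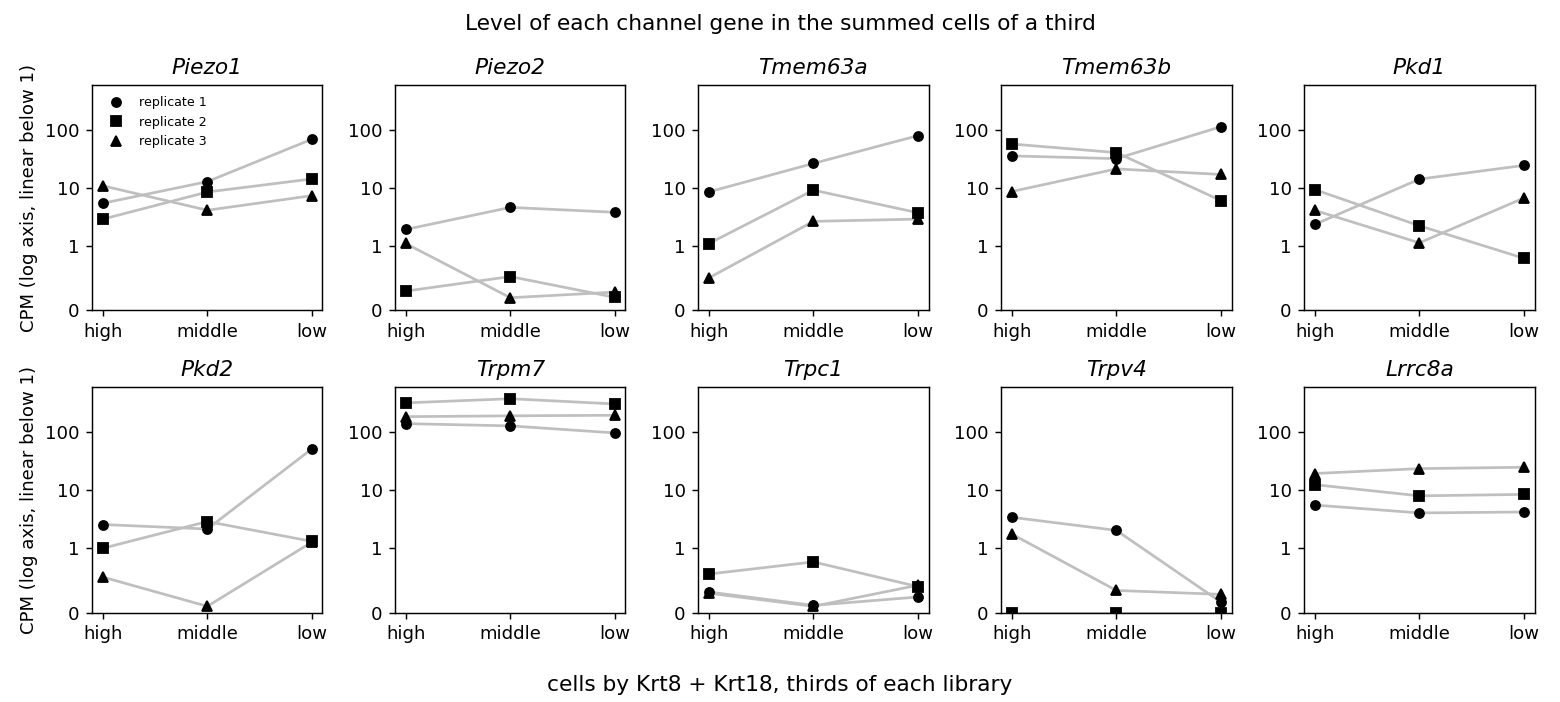
Level (CPM of the summed cells, log axis that is linear near 0) of each channel gene in keratin-high, middle and keratin-low cells; each symbol is 1 library and lines join the classes of a library. Trpm7 changes little within a library, and Tmem63a is lower on the keratin-high than on the keratin-low side in all 3.

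Trpm7 had much the same level on both sides. It had 141, 321 and 186 CPM in keratin-high cells of replicates 1 to 3, against 97.4, 308 and 197 CPM in keratin-low cells. The sides overlapped, and the log2 fold change of keratin-high over keratin-low cells was 0.10 (SE 0.51, 95% interval -1.05 to 1.25; adjusted p = 0.961 by edgeR). Without barcodes 33 to 64 of replicate 1 it turned to -0.15 (SE 0.18, 95% interval -0.56 to 0.26; adjusted p = 0.707 by edgeR). Cells with a count made up 95.9 ± 0.574% of keratin-high and 94.7 ± 1.85% of keratin-low cells (SD, n = 3 libraries).

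Lrrc8a had 5.56, 12.5 and 19.5 CPM in keratin-high cells of replicates 1 to 3, against 4.22, 8.49 and 24.9 CPM in keratin-low cells. It was higher in keratin-high cells in 2 of 3 libraries, and the libraries lay further apart than the sides of a library. The log2 fold change was 0.13 (SE 0.74, 95% interval -1.53 to 1.78; adjusted p = 0.965 by edgeR), and 0.019 without the set.

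Tmem63a had the smallest p of the 8 genes. It had 8.56, 1.10 and 0.503 CPM in keratin-high cells of replicates 1 to 3, against 80.2, 3.74 and 2.91 CPM in keratin-low cells. It was lower on the keratin-high side in 3 of 3 libraries, although the sides overlapped across libraries, because replicate 1 was high on both. The log2 fold change was -2.60 (SE 0.75, 95% interval -4.28 to -0.91; adjusted p = 0.237 by edgeR), with an unadjusted p of 0.00664. Without barcodes 33 to 64 the levels of replicate 1 were 6.66 CPM in keratin-high and 32.1 CPM in keratin-low cells, and the log2 fold change was -2.21 (SE 0.68, 95% interval -3.77 to -0.65; adjusted p = 0.110 by edgeR). DESeq2 called the gene, with a log2 fold change of -2.65 and an adjusted p of 0.0114, where its background was 875 of 13135 genes, 6.66%. In 17 of 17 alternatives that could be fitted, drawn from the same 3 libraries, Tmem63a was lower in keratin-high cells. Its log2 fold changes there were -3.30 to -1.14, with adjusted p from edgeR, DESeq2 or limma between 0.0114 and 0.763. With the parts cut within each set of 32 barcodes, the log2 fold change was -1.17 (SE 0.65, 95% interval -2.82 to 0.47; adjusted p = 0.516 by edgeR). Shares of cells were less even than levels. Thinned, a count was present in 44%, 10% and 0% of keratin-high cells, against 80%, 5.56% and 8.70% of keratin-low cells, lower in 2 of 3 libraries. Counts were few outside replicate 1, with 11 and 10 in keratin-high and 37 and 41 in keratin-low cells of replicates 2 and 3, and 1 keratin-low cell of replicate 2 held 89.2% of the counts of that side.

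**Figure D4:**
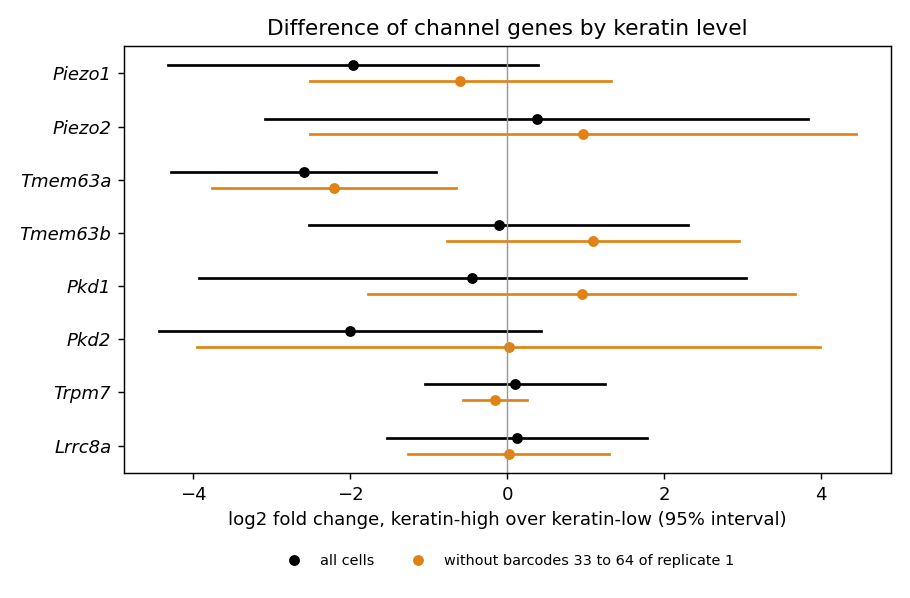
Log2 fold change of keratin-high over keratin-low cells (horizontal axis) with its 95% interval for the channel genes tested, with all cells and without barcodes 33 to 64 of replicate 1. With all cells, only the interval of Tmem63a (-4.28 to -0.91) lies wholly below 0, and the values of Piezo1 and Pkd2 are nearer to 0 without the set.

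Piezo1 and Pkd2 had fold changes that shrank without barcodes 33 to 64 of replicate 1. Piezo1 had 5.46, 2.90 and 10.96 CPM in keratin-high cells of replicates 1 to 3, against 69.6, 14.3 and 7.39 CPM in keratin-low cells. It was lower in keratin-high cells in 2 of 3 libraries. The log2 fold change was -1.96 (SE 1.05, 95% interval -4.32 to 0.39; adjusted p = 0.569 by edgeR), and -0.60 (SE 0.84; adjusted p = 0.763 by edgeR) without the set. Its thinned share of cells was 21.7 ± 6.75% in keratin-high and 28.1 ± 7.11% in keratin-low cells (SD, n = 3 libraries), a difference no larger than the spread. Unthinned, where depth also counts, the mean shares were 56.3% and 50.9%, higher in keratin-high cells in 2 of 3 libraries. Pkd2 had 2.57, 0.999 and 0.553 CPM in keratin-high cells of replicates 1 to 3, against 52.0, 1.31 and 1.28 CPM in keratin-low cells. Only the keratin-low side of replicate 1 had more than 3 CPM. Its log2 fold change was -2.01 (SE 1.08, 95% interval -4.44 to 0.43; adjusted p = 0.573 by edgeR), and 0.018 (SE 1.74; adjusted p = 0.996 by edgeR) without the set.

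Pkd1 and Tmem63b went in opposite directions in different libraries. Pkd1 had 2.35, 9.39 and 4.12 CPM in keratin-high cells of replicates 1 to 3, against 24.6, 0.808 and 6.75 CPM in keratin-low cells. Replicate 2 was higher on the keratin-high side and the others lower. Its log2 fold change was -0.44 (SE 1.55, 95% interval -3.93 to 3.05; adjusted p = 0.944 by edgeR), and it turned to 0.95 (SE 1.19; adjusted p = 0.726 by edgeR) without barcodes 33 to 64 of replicate 1. Tmem63b had 35.8, 57.4 and 8.70 CPM in keratin-high cells of replicates 1 to 3, against 114, 6.06 and 17.1 CPM in keratin-low cells. It too was higher on the keratin-high side in replicate 2 only, and 88.1% of the counts on the keratin-low side of replicate 1 were those of 1 cell. The log2 fold change was -0.11 (SE 1.08, 95% interval -2.53 to 2.31; adjusted p = 0.984 by edgeR), and it turned to 1.09 (SE 0.82; adjusted p = 0.532 by edgeR) without the set. Its thinned shares were 48%, 50% and 25% of keratin-high cells and 36%, 11.1% and 43.5% of keratin-low cells, higher in 2 of 3 libraries.

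Trpv4, Trpc1 and Piezo2 had few counts for the comparison, and Trpv4 and Trpc1 did not pass the filter on low counts. Trpv4 had 32, 0 and 35 counts in keratin-high cells and 2, 0 and 4 counts in keratin-low cells of replicates 1 to 3. These lay in 5, 0 and 5 keratin-high and in 2, 0 and 1 keratin-low cells. Fitted with no filter, its log2 fold change was 3.18 (SE 2.52, 95% interval -2.05 to 8.42; adjusted p = 0.837 by edgeR). Trpc1 had 3, 6 and 6 counts in keratin-high and 3, 4 and 6 counts in keratin-low cells. Piezo2 had 1.93, 0.300 and 1.11 CPM in keratin-high cells of replicates 1 to 3, against 3.81, 0.202 and 0.284 CPM in keratin-low cells. Its log2 fold change was 0.38 (SE 1.54, 95% interval -3.08 to 3.84; adjusted p = 0.951 by edgeR), with higher levels in keratin-high cells of replicates 2 and 3 and a lower one in replicate 1. Its thinned share of cells was not of that order. It was 0%, 0% and 4.17% of keratin-high cells, against 24%, 11.1% and 4.35% of keratin-low cells. The share was lower in keratin-high cells of replicates 1 and 2. In replicate 3, with 24 and 23 thinned cells on the sides, it was nearly equal.

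The number of channel genes seen per cell overlapped between the sides. Keratin-high cells had a median of 4, 4 and 4 of the 10 genes in replicates 1 to 3, and keratin-low cells 5, 3 and 4. Thinned to 50000 counts, keratin-high cells averaged 2.48, 2.40 and 2.29 of the genes and keratin-low cells 3.48, 1.94 and 2.39. Replicate 2 was higher in keratin-high cells and replicates 1 and 3 were lower.

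**Figure D5:**
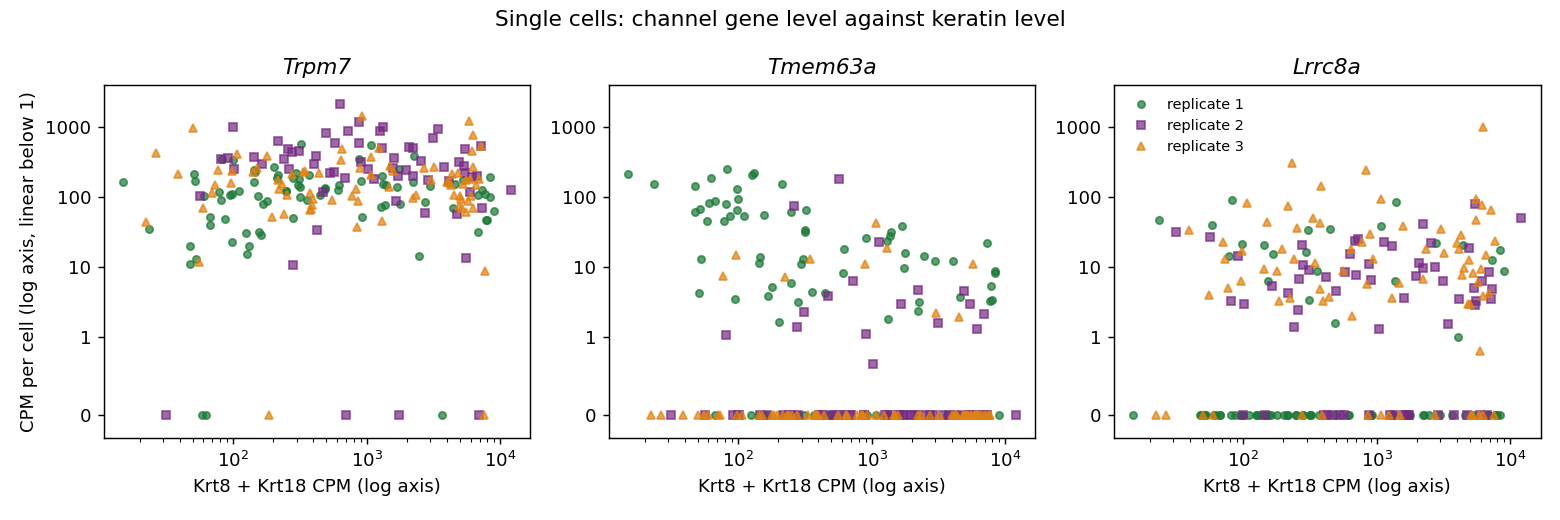
Level per cell (CPM, vertical log axis that is linear near 0) of Trpm7, Tmem63a and Lrrc8a against Krt8 plus Krt18 (CPM, horizontal axis) for all 225 cells, marked by library. Trpm7 forms a band across the whole keratin range, and most cells with Tmem63a belong to replicate 1 (61 of 88).

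Genes around the channels were read out of the same fit in 6 lists, and 0 of their tested genes were called with all cells. Of 5 tested partners of PIEZO channels the median log2 fold change was -0.12, beside -0.01 over all genes, and without barcodes 33 to 64 of replicate 1 it turned to 1.29, beside -0.0041. Tmem120a, a membrane protein once proposed as a mechanically gated channel of pain neurons, had 113, 71.5 and 94.6 CPM in keratin-high and 28.7, 22.6 and 34.4 CPM in keratin-low cells, which did not overlap. Its log2 fold change was 1.63 (SE 0.58; adjusted p = 0.343 by edgeR), and without barcodes 33 to 64 of replicate 1 it was called at a log2 fold change of 1.29 (SE 0.28; adjusted p = 0.0357 by edgeR). Atp2a2, the calcium pump of the endoplasmic reticulum, had 23.7, 66.9 and 40.6 CPM in keratin-high and 46.7, 123 and 68.1 CPM in keratin-low cells, at a log2 fold change of -0.94 (SE 0.58; adjusted p = 0.625 by edgeR). Without the set its levels in replicate 1 were 23.3 CPM in keratin-high and 12.7 CPM in keratin-low cells, the other way round, and the log2 fold change was -0.33.

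Other TRP and stretch-gated channels gave no call with all cells. Of 12 other TRP channels tested the median log2 fold change was -0.28, and -0.12 without the set. Trpv2 had 31.7, 14.3 and 6.99 CPM in keratin-high and 299, 4.95 and 4.41 CPM in keratin-low cells, and Trpm3 had 6.85, 8.89 and 1.81 CPM in keratin-high and 298, 2.63 and 8.46 CPM in keratin-low cells. Both stood out on the keratin-low side of replicate 1. Their log2 fold changes were -0.21 and -2.11 with all cells, and 0.97 and -0.22 without the set. Trpm6, the channel kinase most like Trpm7, was called without barcodes 33 to 64 of replicate 1. It then had 21.8, 45.7 and 26.4 CPM in keratin-high and 0.614, 0.404 and 2.20 CPM in keratin-low cells, at a log2 fold change of 5.00 (SE 0.78; adjusted p = 0.00861 by edgeR), and with all cells its log2 fold change was 3.82 (SE 1.14; adjusted p = 0.251 by edgeR). Of 10 other stretch-gated channels tested the median was 0.70, and 0.52 over the 11 tested without the set. P2rx4, an ATP-gated channel, had 41.5, 33.2 and 17.8 CPM in keratin-high and 474, 52.5 and 51.7 CPM in keratin-low cells, with log2 fold changes of -1.94 with all cells and -0.90 without the set. Kcnk2, the stretch-gated potassium channel TREK-1, had 147, 23.8 and 77.9 CPM in keratin-high and 33.8, 13.8 and 109 CPM in keratin-low cells, with log2 fold changes of 0.73 with all cells and 0.10 without the set. Tmc2, a hair-cell channel subunit, was called without the set at a log2 fold change of 3.46 (SE 0.76; adjusted p = 0.0384 by edgeR), and with all cells its log2 fold change was 1.96 (SE 1.005; adjusted p = 0.547 by edgeR).

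Median log2 fold changes were -0.33, 0.25 and -0.18 in the other 3 lists. These had 5 tested genes of the LRRC8 partner and chloride channel list, 13 of the polycystin family and cilium list, and 23 calcium genes. All 3 medians turned in sign without barcodes 33 to 64 of replicate 1, to 0.58, -0.031 and 0.19. These were taken over 5, 12 and 21 genes, since some genes were tested in 1 setting only. Ano6, a scramblase and channel, had 87.2, 129 and 125 CPM in keratin-high and 560.1, 146 and 47.0 CPM in keratin-low cells, and its log2 fold change of -0.51 turned to 0.58 without the set. Clcn3, a chloride and proton exchanger, had 79.1, 234 and 58.8 CPM in keratin-high and 25.2, 112 and 54.1 CPM in keratin-low cells, higher in 3 of 3 libraries, with log2 fold changes of 0.87 with all cells and 0.84 without the set. Ift88 and Kif3a, which serve transport in cilia, stood out on the keratin-low side of replicate 1. Ift88 had 36.3, 46.5 and 13.02 CPM in keratin-high and 558, 49.0 and 14.1 CPM in keratin-low cells, and Kif3a had 42.9, 26.7 and 46.5 CPM in keratin-high and 350.3, 10.9 and 37.4 CPM in keratin-low cells. Without the set the log2 fold change of Ift88 was -0.27, against -1.27 with all cells, and that of Kif3a was 0.81, against -0.39. Calm2, which encodes a calcium-binding messenger protein, had 428, 466 and 1131 CPM in keratin-high and 135, 366 and 682 CPM in keratin-low cells, higher in 3 of 3 libraries at a log2 fold change of 0.84 (SE 0.52; adjusted p = 0.627 by edgeR), and 0.39 without the set. Tmem120a, Trpm6 and Tmc2, called without the set, were 1 of 5, 1 of 12 and 1 of 11 genes tested in their lists. In the same setting, 0 of 5 were called in the LRRC8 partner and chloride channel list. The polycystin family and cilium list had 0 of 12, and 5.5% of all genes were called. These lists are too small to set their shares against that of all genes. Tmem120a, Trpm6 and Tmc2 were higher in keratin-high cells.

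Across cells the channel genes varied together weakly at most. Spearman correlations were taken within each library over the 202 cells thinned to 50000 counts and averaged over the 3 libraries, for the 5 channel genes with a count in at least 25% of the cells of every library. Cells share their library and its depth, and no p is given. The mean over pairs of these genes ranged from -0.20 for Trpm7 with Pkd1 to 0.19 for Piezo1 with Pkd1. Among 8523 genes, those most like Trpm7 were Mboat2 (0.33), Ubxn4 (0.30) and H2-K1 (0.29), by mean rho. Those most like Piezo1 were Pcdh15 (0.34), Dpyd (0.28) and Prrc2b (0.28). Those most like Pkd1 were Elf4 (0.37), Map3k5 (0.35) and Macrod2 (0.34). Nearest to Tmem63b were Yipf3 (0.35), Actn2 (0.32) and Snhg11 (0.31), and nearest to Lrrc8a were Emc4 (0.30), Bcs1l (0.27) and Ebpl (0.25). Such values are weak in sparse counts, and for Piezo1 with Pcdh15 rho was 0.42, 0.44 and 0.16 in replicates 1 to 3.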

How the data were processed

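Counts per gene and cell barcode were deposited by the authors as whole numbers, not normalized. CASAVA 1.8, HISAT2, HTSeq and the build mm10 are named in the submitters' processing notes. Aligner and counter versions, annotation, strand and any use of the 8 nt molecular identifiers were not given in the sources used here, so whether counts are molecules or reads is unknown. Per the labels' protocols, an optimized Smart-seq2 method with 17 and 5 cycles of PCR and 3' capture was used.

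Barcodes with counts for 2000 or more genes were taken as cells. No doublet caller was run, since cells were picked by hand, and leaving out cells over 2.5 times the median total was an alternative. Library totals were 30573711, 27610866 and 54444536 counts. The upper and lower of 3 parts by Krt8 plus Krt18 were summed within each library, giving 6 sums. They were fitted with edgeR 4.0.16 (filterByExpr, TMM, quasi-likelihood test, Benjamini-Hochberg adjustment over all genes tested, threshold 0.05) and the library as a block, because both sums of a pair come from 1 library. Their deviations from the class means correlated at 0.42, 0.41 and 0.31. Krt8 and Krt18 were left out of counts of called genes. The same cells made the classes and entered the test, and p-values leave out that uncertainty. DESeq2 1.42.0 and limma 3.58.1 were alternatives. For shares, cells were thinned without replacement to 50000 counts. The fit was tested on simulated data. The members, gene lists and tests were chosen with earlier results of these data known. Named were all 10 members, the 2 tested genes of highest mean CPM of each list, list genes called (at most 4 a list), and the 3 genes most alike across cells. The result of 1 list gene is not reported here.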

Additional observations from a re-analysis of the deposited data

Results flagged for a closer look

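Some counts of channel genes lay in barcodes with too few genes to be taken as cells, above the 3 counts that a count of 0 allows. In replicate 2, 32 such barcodes held 92365 counts in all. Of these, 37 were Trpm7, 31 of them in 1 barcode. Another 15 were Trpc1, all in 1 barcode, beside 16 counts of Trpc1 in all 64 cells of that library. In replicate 3, 18 such barcodes held 46 counts of Trpm7, 44 of them in 1 barcode. In replicate 1, 13 such barcodes held 4 counts of Tmem63a, in 4 barcodes.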

How the results depend on the processing

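The number of genes called between keratin-high and keratin-low cells moved with nearly every choice. It was 19 as reported and 2 (RLE scaling factors), 65 (total counts only), 165 (no filter on low counts), 875 (DESeq2), 268 (limma), 90 (2 parts), 0 (outer of 4 parts), 104 (parts over all libraries together), 40 (other trophectoderm markers), 59 (parts within barcode sets), 0 (4000 or more genes per cell), 225 (without very deep cells), 63 (thinned cells) and 649 (without barcodes 33 to 64 of replicate 1). It was 406, 141 and 17 without replicate 1, 2 or 3. Where edgeR called 0, 1281 (outer of 4 parts) and 1237 (4000 or more genes) had an unadjusted p below 0.05. Without the replicate block edgeR called 0 genes, with 1261 at an unadjusted p below 0.05. The causes were not tested. Channel genes called numbered 0 in 17 of 18 alternatives and 1, Tmem63a, with DESeq2.

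Of 140 log2 fold changes of channel genes under alternatives, none of them called before, 31 turned in direction; ranges are over settings that leave out 1 replicate or barcodes 33 to 64 of replicate 1. Tmem63b turned to 0.77 (limma), 0.26 (2 parts), 0.32 (parts over all libraries together), 0.074 (other trophectoderm markers), 1.97 (parts within barcode sets) and 1.52 (without very deep cells), and ranged over -1.40 to 1.12 there. Pkd1 turned to 0.38 (other trophectoderm markers) and 0.81 (parts within barcode sets), and ranged over -2.10 to 1.34 there. Pkd2 ranged over -2.92 to 0.018 there, and over -4.00 to 0.018 in all 17 alternatives fitted. Trpm7 turned to -0.026 (outer of 4 parts), -0.27 (other trophectoderm markers), -0.11 (parts within barcode sets) and -0.039 (thinned cells), and ranged over -0.15 to 0.30 there. Lrrc8a turned to -0.031 (no replicate block), -0.33 (outer of 4 parts), -0.010 (parts over all libraries together), -0.24 (other trophectoderm markers) and -0.0028 (thinned cells), and ranged over -0.056 to 0.48 there. Piezo2 turned to -0.094 (limma), -0.57 (no replicate block) and -0.011 (2 parts), and ranged over -0.32 to 0.96 there. Piezo1 and Tmem63a were lower in keratin-high cells in 18 of 18 and 17 of 17 alternatives. The alternatives draw on the same 3 libraries, so their agreement is not independent. Piezo1 ranged over -2.99 to -0.33 in them, and its level in replicate 3 was higher in keratin-high cells. Mean levels moved by more than 1 SD in 4 of 80 cases.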
